A study of Mus musculus with 6 samples.

Results

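Interleukin 7 (IL-7) signalling was examined through 10 genes: the receptor chains Il7r and Il2rg, the Janus kinases Jak1 and Jak3, the transcription factors Stat5a and Stat5b, and the feedback inhibitors Socs1, Socs2, Socs3 and Cish. Each was found by its gene symbol in 1 of the 21307 rows of the deposited expression table. The table compares bone marrow B cells in which Prmt5, an arginine methyltransferase gene, was deleted with 4-hydroxytamoxifen (4-OHT; 3 libraries) with cells given ethanol (3 libraries). All 6 libraries came from mice 6 to 8 weeks old on a C57BL/6 x 129S1/SvlmJ background, with the genotype E-mu-myc;Prmt5F/FCreER. That is, cells of both conditions carried the E-mu-myc transgene, in which an immunoglobulin enhancer drives MYC in B cells, loxP-flanked Prmt5 and a tamoxifen-inducible Cre recombinase. Which promoter drives Cre was not given in the sources used here. All cells grew with IL-7 at 5 ng/µl, received 50 nM 4-OHT or ethanol for 24 h, and were cultured for 5 days after the wash.

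The 4-OHT libraries are titled PT and the ethanol libraries WT, whereas the characteristics give all of them the same genotype; the conditions are named here by treatment. A 4-OHT control without floxed Prmt5 was not analysed here, so the loss of Prmt5 cannot be told apart from 4-OHT exposure or Cre activity. Each condition has 1 FPKM value per gene (mapped fragments scaled to transcript length and library size), which stands for its 3 libraries together. No difference has a replicate check, so values are compared by size alone and no test is given. Ratios are 4-OHT over ethanol on the log2(FPKM + 1) scale, and fold differences are on this scale, which understates those of low genes. Genes that averaged 1 FPKM or more over both conditions and lay above 0 in each were compared (10856 in all), and their median log2 ratio was -0.07, with 55.1% of them lower and 44.9% higher in 4-OHT. Prmt5 itself stood at 5.71 FPKM in 4-OHT and 41.6 FPKM in ethanol, 6.35-fold lower, and Myc at 213 FPKM in 4-OHT and 402 FPKM in ethanol.

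IL-7 is the growth factor of mouse pro-B and pre-B cells. It binds a receptor made of the IL-7 receptor alpha chain, encoded by Il7r, and the common gamma chain, encoded by Il2rg. The chains carry JAK1 and JAK3, which phosphorylate STAT5A and STAT5B; these enter the nucleus and activate genes of survival and division. STAT5 also activates genes for CIS and SOCS proteins, which bind activated receptors or kinases and limit the signal, so their transcripts are widely used as a readout of cytokine signalling.

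The receptor, kinase and STAT5 genes differed by less than 2-fold between the conditions, while each of the 4 feedback inhibitor genes differed by at least 2-fold. Socs1, Socs2 and Cish were lower in 4-OHT, and Socs3 was higher. In bulk RNA of this kind, fewer cells of a type and less RNA per cell cannot be told apart. Of the 10 genes, 3 were at least 2-fold lower, against 2.58% of all compared genes, and 1 was at least 2-fold higher, against 10.4% of all compared genes. The median log2 ratio was 0.39 over the 4 receptor and kinase genes (range -0.22 to 0.64) and -1.17 over the 4 inhibitor genes (range -1.68 to 1.04). These genes were chosen with earlier results of the same data known, so the counts describe them and are no independent support.

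**Figure D1:**
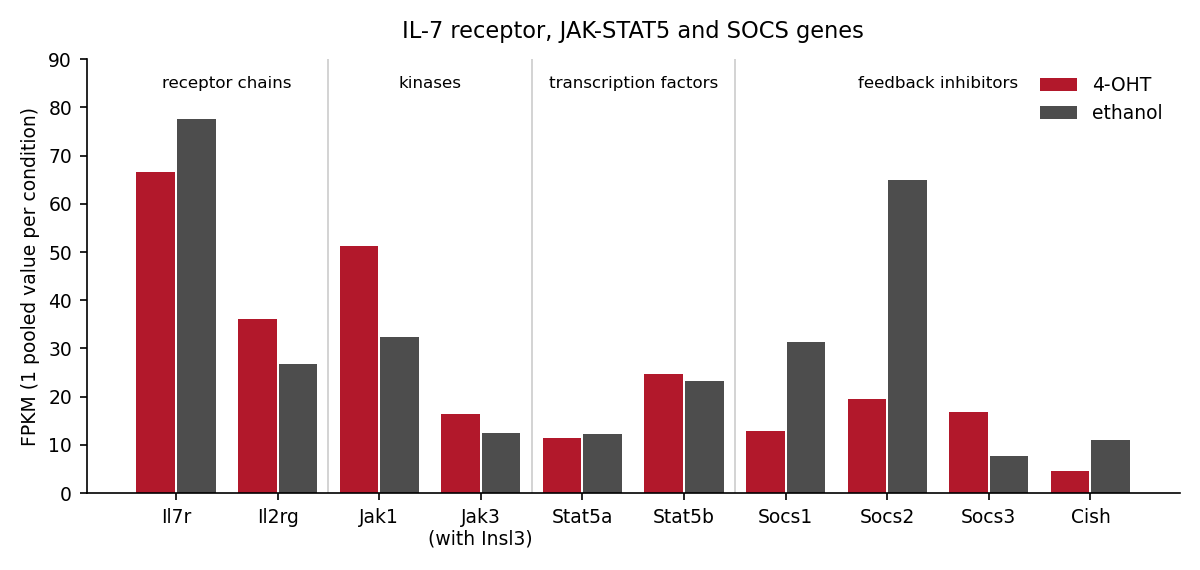
FPKM of the 10 genes (vertical axis, 1 pooled value per gene and condition, no error available) in 4-OHT (red, left bar) and ethanol (grey, right bar), grouped by role. The bars of Socs1, Socs2 and Cish are shorter in 4-OHT, that of Socs3 is taller (16.9 against 7.72 FPKM), and those of Stat5a and Stat5b are near equal.

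Among the receptor chains, Il7r was the most abundant of the 10 genes in both conditions. It stood at 66.7 FPKM in 4-OHT and 77.6 FPKM in ethanol, a log2 ratio of -0.22, and its level exceeded that of 91.4% of the compared genes in 4-OHT and 92.6% in ethanol (mm9, chromosome 15, 9435914 to 9459631). Il2rg, whose product also serves the receptors for interleukins 2, 4, 9, 15 and 21, stood at 36.2 FPKM in 4-OHT and 26.8 FPKM in ethanol (log2 ratio 0.42; chromosome X, 98459726 to 98463545). The ratios of the chains thus had opposite signs, but both differences were under 2-fold, and that of Il7r was small. The Il7r level was 1.84 times that of Il2rg in 4-OHT and 2.89 times in ethanol.

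Jak1 and the row that holds Jak3 were higher in 4-OHT. Jak1, whose product binds the alpha chain and many other cytokine receptors, stood at 51.3 FPKM in 4-OHT and 32.4 FPKM in ethanol, 1.56-fold higher (chromosome 4, 100741643 to 100937887). The row of Jak3, whose product binds the common gamma chain, stood at 16.3 FPKM in 4-OHT and 12.5 FPKM in ethanol, 1.28-fold higher (chromosome 8, 74200282 to 74214476). That row merges Jak3 with Insl3, a hormone gene that overlaps it, so the value cannot be assigned to Jak3 alone. The summed level of both kinase rows was 67.6 FPKM in 4-OHT and 44.9 FPKM in ethanol.

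The STAT5 genes were near equal between the conditions. Stat5a stood at 11.4 FPKM in 4-OHT and 12.2 FPKM in ethanol (log2 ratio -0.10; chromosome 11, 100720665 to 100746483). Its neighbour Stat5b stood at 24.8 FPKM in 4-OHT and 23.3 FPKM in ethanol (log2 ratio 0.09; chromosome 11, 100642045 to 100711899). Stat5b was the more abundant of the pair in each condition, by 2.18 times in 4-OHT and 1.90 times in ethanol. The genes are close copies, and reads may have been shared between them; their summed level was 36.1 FPKM in 4-OHT and 35.5 FPKM in ethanol.

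The inhibitor genes held the widest differences of the set. Socs2, which encodes an adaptor of a ubiquitin ligase known mainly for limiting growth hormone signalling, stood at 19.5 FPKM in 4-OHT and 64.9 FPKM in ethanol, 3.21-fold lower (chromosome 10, 94874124 to 94879491). Of all compared genes, 0.276% had a lower ratio. Socs2 was the second most abundant of the 10 genes in ethanol and the fifth in 4-OHT.

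Socs1, whose product inhibits the kinase activity of JAKs directly, stood at 12.9 FPKM in 4-OHT and 31.4 FPKM in ethanol, 2.32-fold lower (chromosome 16, 10783902 to 10785629). Cish, a classical STAT5 target that encodes CIS, the founding protein of the family, stood at 4.50 FPKM in 4-OHT and 11.0 FPKM in ethanol, 2.18-fold lower (chromosome 9, 107199020 to 107204292). Of all compared genes, 1.17% had a lower ratio than Socs1 and 1.58% a lower ratio than Cish. Cish was the least abundant of the 10 genes in 4-OHT, where its level exceeded that of 22.8% of the compared genes, against 48.4% in ethanol.

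Socs3 went the other way. Its product also inhibits JAKs directly and is known for limiting receptors that signal through gp130 and the receptor for granulocyte colony-stimulating factor. It stood at 16.9 FPKM in 4-OHT and 7.72 FPKM in ethanol, 2.05-fold higher (chromosome 11, 117827401 to 117830680). Of all compared genes, 9.70% had a higher ratio, so a ratio of this size was common. The Socs3 log2 ratio was 0.98, just under 2-fold, under median-of-ratios scaling. That scaling used all rows above 0 in both conditions, also those too low to be compared. With the median ratio of compared genes set to 0, the Socs3 log2 ratio was 1.10. Socs3 was the least abundant of the 10 genes in ethanol and the sixth in 4-OHT.

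The make-up of the inhibitor transcripts differed as well. Summed over the 4 genes, the level was 53.8 FPKM in 4-OHT and 115 FPKM in ethanol. Socs2 made up 36.3% of that sum in 4-OHT and 56.4% in ethanol, and Socs3 made up 31.4% in 4-OHT and 6.72% in ethanol. The shares of Socs1 (24.0% in 4-OHT, 27.3% in ethanol) and Cish (8.35% in 4-OHT, 9.56% in ethanol) differed less. Set against the Il7r level, the inhibitor sum was 0.808 in 4-OHT and 1.48 in ethanol.

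**Figure D2:**
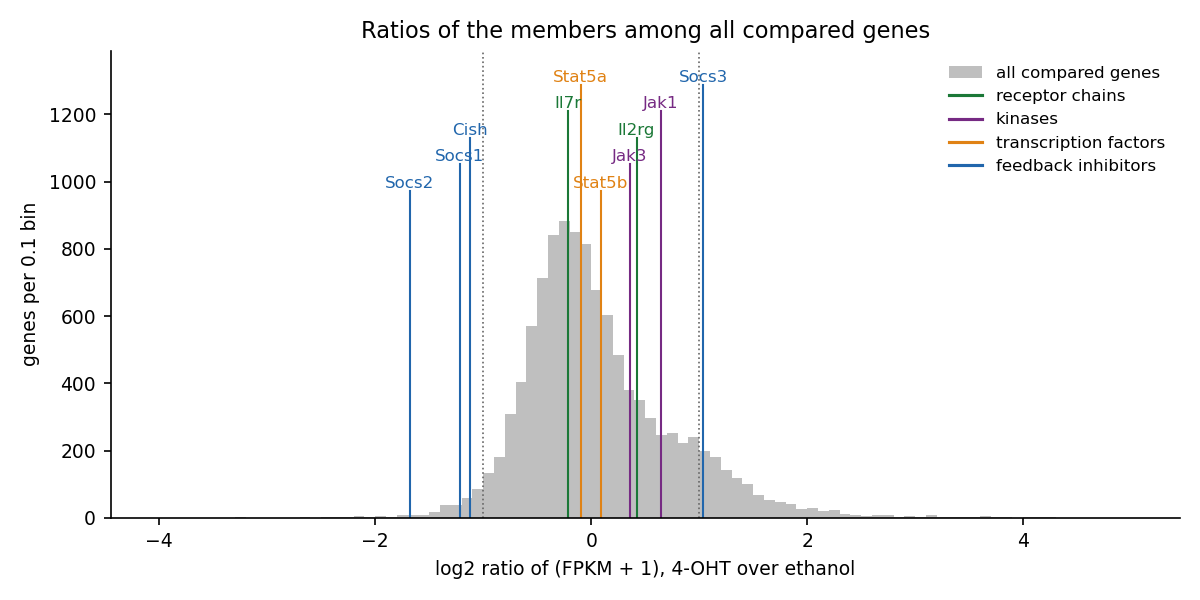
Histogram of the log2 ratios (horizontal axis, 4-OHT over ethanol) of the 10856 compared genes in bins of 0.1 (vertical axis, genes per bin), with a line at the ratio of each of the 10 genes, coloured by role; dotted lines mark 2-fold. Socs2, Socs1 and Cish lie in the sparse left tail, Socs3 lies in the broad right shoulder, and the receptor, kinase and STAT5 genes lie in the body between the dotted lines.

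STAT5 reaches its target genes through DNA, so the start regions of the 10 genes were searched where one was found. Stretches are shown for Cish, Socs3 and Il7r because they held a match, and for Socs1. STAT5 dimers bind TTCNNNGAA, a palindrome that reads the same on both strands. Windows from 250 bases before to 50 bases after the start were taken from RefSeq on GRCm38.p6, another build than the mm9 of the expression table. They were found for 9 of the 10 genes, with Socs2 the exception, and Stat5a and Stat5b had 2 windows each. The letters occurred in 8.30% of all 32851 windows, and among the 9 genes in those of Cish, Socs3 and Il7r. Cish held 2 matches, at bases 1 to 9 and 12 to 20 counted from the start site, in a stretch that overlaps an exon annotated in GENCODE; 0.457% of all windows held 2 or more. Socs3 held its match at bases -154 to -146 and Il7r at bases -142 to -134. The stretches of 30 bases that hold the matches are given 5′ to 3′ on the strand of the gene, with the matches in capitals: Cish chr9:107296654-107296683 (plus strand), Socs3 chr11:117969502-117969531 (minus strand) and Il7r chr15:9530000-9530029 (minus strand).
Cish: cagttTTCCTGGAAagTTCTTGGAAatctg
Socs3: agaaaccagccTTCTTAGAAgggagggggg
Il7r: agttcaggagcTTCAGGGAAtaccaagatg

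The match thus stood beside a gene that was lower in 4-OHT (Cish), one that was higher (Socs3) and one that was near equal (Il7r). Socs1 held no TTCNNNGAA in its window. It held 2 overlapping matches to the run GAAA repeated after 2 bases, searched on both strands, at bases -83 to -74 and -77 to -68; these letters form the core of interferon response elements and occurred in 3.44% of all windows. They are in capitals in the 250 bases before its start, chr16:10785537-10785786 on the minus strand of GRCm38.p6, which overlap no exon annotated there. The wider spacing that STAT6 prefers, TTC and GAA with 4 bases between them, occurred in 6.95% of all windows and in 0 of the windows of the 9 genes. A match is a run of letters and was not tested as a binding site.
Socs1: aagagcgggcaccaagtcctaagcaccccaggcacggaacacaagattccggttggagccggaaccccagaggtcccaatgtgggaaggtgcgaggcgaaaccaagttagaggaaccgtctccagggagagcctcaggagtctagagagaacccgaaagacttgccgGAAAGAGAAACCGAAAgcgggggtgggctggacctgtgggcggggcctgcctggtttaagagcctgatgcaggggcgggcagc

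Genes of B cells and of other cells also differed between the conditions, and their part in the results above was not tested. All 11 early B-cell markers were lower in 4-OHT, 5 by at least 2-fold, against 55.1% and 2.58% of all compared genes. Their median log2 ratio was -0.89 (range -1.96 to -0.05), and their summed level was 969.9 FPKM in 4-OHT and 2034 FPKM in ethanol. The most abundant were Vpreb3, a gene of the surrogate light chain family, at 242 FPKM in 4-OHT and 509 FPKM in ethanol, and the surface glycoprotein gene Cd24a, at 273 FPKM in 4-OHT and 451 FPKM in ethanol. The ratios of Socs1 and Cish lay within the range of these markers: 3 of 11 markers had a lower ratio than each. For Socs2, 2 of 11 markers had a lower ratio, while Il7r lay above 10 of 11 and Socs3 above 11 of 11.

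Set against the summed level of these 11 markers, Socs1 and Cish were the inhibitor genes nearest to equal between the conditions. Socs1 stood at 1.33% of that sum in 4-OHT and 1.54% in ethanol, and Cish at 0.464% in 4-OHT and 0.540% in ethanol. Socs2 was lower, at 2.01% in 4-OHT and 3.19% in ethanol. Socs3 was at 1.74% in 4-OHT and 0.380% in ethanol, and Il7r at 6.87% in 4-OHT and 3.82% in ethanol. This scale was chosen after the values were seen, and it does not show which cells made the transcripts. The sum weighs its most abundant markers, Vpreb3 and Cd24a, most. The median log2 ratio of the markers was -0.89, against -1.22 for Socs1 and -1.12 for Cish.

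**Figure D3:**
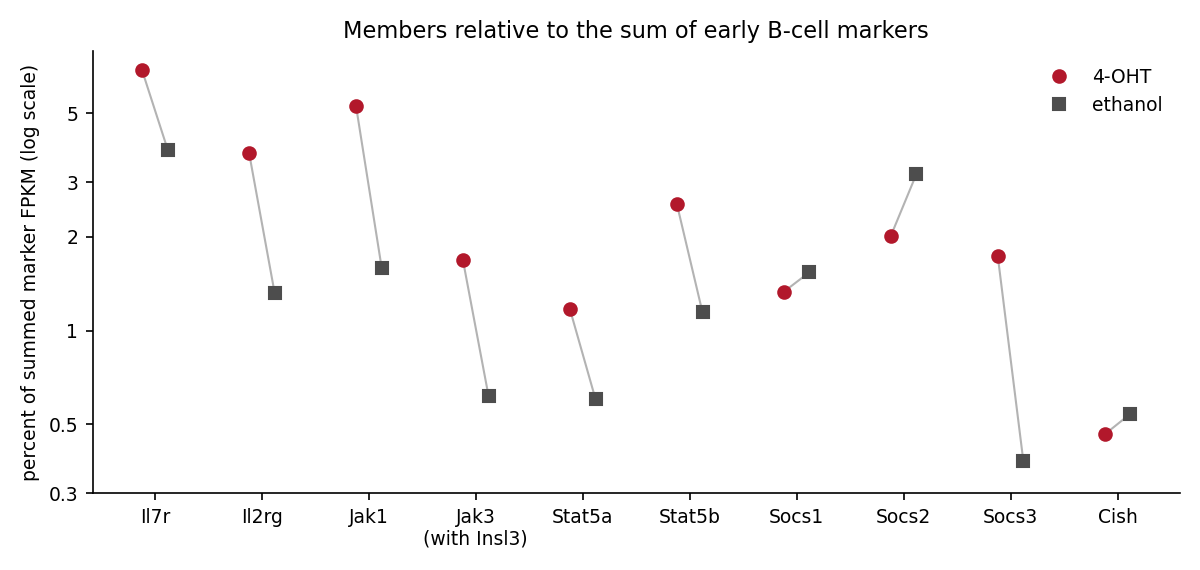
FPKM of each of the 10 genes as a percent of the summed FPKM of 11 early B-cell markers in the same condition (vertical axis, log scale), in 4-OHT (red circles, left) and ethanol (grey squares, right), joined by a line. Socs1 and Cish are nearly level (1.33% against 1.54% for Socs1), Socs2 is lower in 4-OHT, and the other 7 genes are higher in 4-OHT.

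Markers of further cell types stood higher in 4-OHT. For the counts below, the shares over all compared genes were 44.9% higher and 10.4% at least 2-fold higher. All 10 compared neutrophil markers were at least 2-fold higher (median log2 ratio 3.14; summed level 3608 FPKM in 4-OHT and 415 FPKM in ethanol), with the granule genes Ngp at 1269 FPKM in 4-OHT and 125 FPKM in ethanol and Lcn2 at 687 FPKM in 4-OHT and 90.7 FPKM in ethanol. All 11 compared macrophage markers were higher, 8 of them at least 2-fold (median 1.15; sum 1702 FPKM in 4-OHT and 761 FPKM in ethanol); the complement gene C1qb stood at 365.5 FPKM in 4-OHT and 162 FPKM in ethanol, and the lysosomal gene Cd68 at 324 FPKM in 4-OHT and 146 FPKM in ethanol. Lyz2 was left out of these 11 and of their sum because it is listed at 0 in 4-OHT. In ethanol it is listed at 3835 FPKM, above the ethanol sum of the 11. Megakaryocyte markers (7 of 7 at least 2-fold higher, sum 884 FPKM in 4-OHT and 236 FPKM in ethanol) included the chemokine genes Pf4, at 585 FPKM in 4-OHT and 156 FPKM in ethanol, and Ppbp, at 149.8 FPKM in 4-OHT and 42.8 FPKM in ethanol. Mast cell, basophil and eosinophil markers (6 of 7 at least 2-fold higher, sum 334 FPKM in 4-OHT and 93.4 FPKM in ethanol) included Prss34, a basophil protease gene, at 107 FPKM in 4-OHT and 34.2 FPKM in ethanol and Prg2, an eosinophil granule gene, at 95.9 FPKM in 4-OHT and 24.2 FPKM in ethanol. Stromal markers (9 of 9 at least 2-fold higher, sum 521 FPKM in 4-OHT and 31.5 FPKM in ethanol) included the matrix genes Col1a1, at 127 FPKM in 4-OHT and 6.91 FPKM in ethanol, and Sparc, at 108 FPKM in 4-OHT and 7.56 FPKM in ethanol.

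T cells and natural killer cells, which also carry the common gamma chain, left lower marker levels. Of 12 markers, 6 were compared, and 5 of these were higher and 1 lower in 4-OHT, against 44.9% higher over all compared genes. Their summed level was 32.3 FPKM in 4-OHT and 18.8 FPKM in ethanol. The defining T-cell genes Cd3d, Cd3e and Cd3g stood between 1.44 and 2.52 FPKM in 4-OHT and between 0.440 and 0.703 FPKM in ethanol. The most abundant of the list were the kinase gene Lck, at 11.1 FPKM in 4-OHT and 13.6 FPKM in ethanol, and the granule gene Nkg7, at 13.6 FPKM in 4-OHT and 1.62 FPKM in ethanol.

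Of the ligands, Il7 itself stood at 0.134 FPKM in 4-OHT and 0.0452 FPKM in ethanol, too low to be compared, in cultures to which IL-7 was added. Of 7 ligand genes of the shared receptor chains, 6 did not reach the level or the values above 0 needed for comparison, and some of these are listed at 0. Il15 was compared, at 7.33 FPKM in 4-OHT and 3.28 FPKM in ethanol (log2 ratio 0.96).

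Of 6 compared partner chains of Il7r and Il2rg, 4 were higher, 3 of these by at least 2-fold, and 2 were lower, against 44.9% of all compared genes higher and 10.4% at least 2-fold higher, with a median log2 ratio of 0.80. Il4ra, the alpha chain for interleukins 4 and 13, stood at 33.3 FPKM in 4-OHT and 12.3 FPKM in ethanol, the highest ratio of the list. Crlf2, which pairs with the Il7r product to form the receptor for thymic stromal lymphopoietin, stood at 33.2 FPKM in 4-OHT and 23.1 FPKM in ethanol. Il2ra, the alpha chain of the interleukin 2 receptor and a STAT5 target in lymphocytes, had the lowest ratio, at 17.1 FPKM in 4-OHT and 34.3 FPKM in ethanol (log2 ratio -0.97).

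The other JAK and STAT genes were mostly higher in 4-OHT, as Jak1 was. Of 7, 6 were higher, against 44.9% of all compared genes, with a median log2 ratio of 0.48. At least 2-fold higher was 1, against 10.4% of all compared genes. Stat6, which acts downstream of interleukin 4, stood at 54.6 FPKM in 4-OHT and 39.5 FPKM in ethanol, and Stat3, which acts downstream of gp130 receptors, at 43.5 FPKM in 4-OHT and 22.6 FPKM in ethanol. Stat4 had the highest ratio, at 4.33 FPKM in 4-OHT and 1.58 FPKM in ethanol, and Stat2, of the interferon pathway, the lowest, at 13.0 FPKM in 4-OHT and 13.1 FPKM in ethanol.

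Other negative regulators of the pathway were split between the directions. Of 16 compared genes, 9 were higher and 7 lower in 4-OHT, against 44.9% higher over all compared genes, with a median log2 ratio of 0.10. At least 2-fold lower were 0 (2.58% of all genes) and at least 2-fold higher 1 (10.4% of all genes). That one was Ptpn6, which encodes the phosphatase SHP-1 of blood cells, at 104 FPKM in 4-OHT and 39.1 FPKM in ethanol. Ptprc, the CD45 phosphatase gene, stood at 69.9 FPKM in 4-OHT and 45.8 FPKM in ethanol, and Ptpn2, the phosphatase gene with the lowest ratio, at 18.1 FPKM in 4-OHT and 23.8 FPKM in ethanol. The 4 remaining SOCS genes, Socs4 to Socs7, had log2 ratios from -0.36 to 0.57.

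Of 10 genes outside the set that IL-7 or STAT5 induces, 7 were lower and 3 higher, against 55.1% lower over all compared genes. At least 2-fold lower were 0 (2.58% of all genes) and at least 2-fold higher 1 (10.4% of all genes), and the median log2 ratio was -0.19, so these counts lay near those of all genes. The cyclin gene Ccnd3 stood at 195 FPKM in 4-OHT and 241 FPKM in ethanol, and the survival gene Mcl1 at 157 FPKM in 4-OHT and 116 FPKM in ethanol. Il2ra, counted in this list too, had the lowest ratio. Gadd45g, a growth arrest gene, had the highest, at 21.1 FPKM in 4-OHT and 9.55 FPKM in ethanol.

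Of 8 genes of pre-B differentiation that IL-7 restrains, 6 were lower and 2 higher, against 55.1% lower over all compared genes, with a median log2 ratio of -0.46; 0 were at least 2-fold lower and 1 at least 2-fold higher (2.58% and 10.4% of all genes). Blnk, the adaptor gene of the pre-B cell receptor, stood at 70.7 FPKM in 4-OHT and 102 FPKM in ethanol, and Cxcr4, a chemokine receptor gene, at 133 FPKM in 4-OHT and 103 FPKM in ethanol. Irf4, a transcription factor gene of light chain rearrangement, had the lowest ratio, at 25.9 FPKM in 4-OHT and 44.3 FPKM in ethanol. Bcl6, a repressor gene that rises in pre-B cells when IL-7 is withdrawn and is also transcribed in myeloid cells, had the highest, at 10.2 FPKM in 4-OHT and 4.03 FPKM in ethanol.

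In the PI3K, AKT and FOXO branch of the receptor's signalling, 6 of 9 compared genes were lower and 3 higher, with a median log2 ratio of -0.19 and 0 past 2-fold, which is near the shares of all compared genes (55.1% lower, 2.58% and 10.4% past 2-fold). Pik3cd, which encodes a catalytic subunit of PI3K, had the lowest ratio, at 117 FPKM in 4-OHT and 214 FPKM in ethanol. Akt1 stood at 90.8 FPKM in 4-OHT and 103 FPKM in ethanol, and the adaptor gene Irs2, with the highest ratio, at 3.84 FPKM in 4-OHT and 1.96 FPKM in ethanol.

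Receptors of other cytokines that use JAKs were higher in 20 of 21 compared cases, 7 by at least 2-fold (44.9% and 10.4% of all compared genes), and their median log2 ratio was 0.81. Csf3r, the receptor for granulocyte colony-stimulating factor, had the highest ratio, at 51.6 FPKM in 4-OHT and 16.2 FPKM in ethanol. The beta chain gene Csf2rb, whose reads may be shared with its near copy Csf2rb2, stood at 142 FPKM in 4-OHT and 95.8 FPKM in ethanol, and the interferon gamma receptor gene Ifngr1 at 78.1 FPKM in 4-OHT and 54.9 FPKM in ethanol. The gp130 gene Il6st, named here because its receptors are limited by SOCS3, stood at 20.5 FPKM in 4-OHT and 11.3 FPKM in ethanol. The one lower gene was Il5ra, at 0.455 FPKM in 4-OHT and 1.80 FPKM in ethanol. Csf3r is itself transcribed in neutrophils, whose markers were higher in the same comparison (above); which cells the receptor transcripts and Socs3 came from was not tested.

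**Figure D4:**
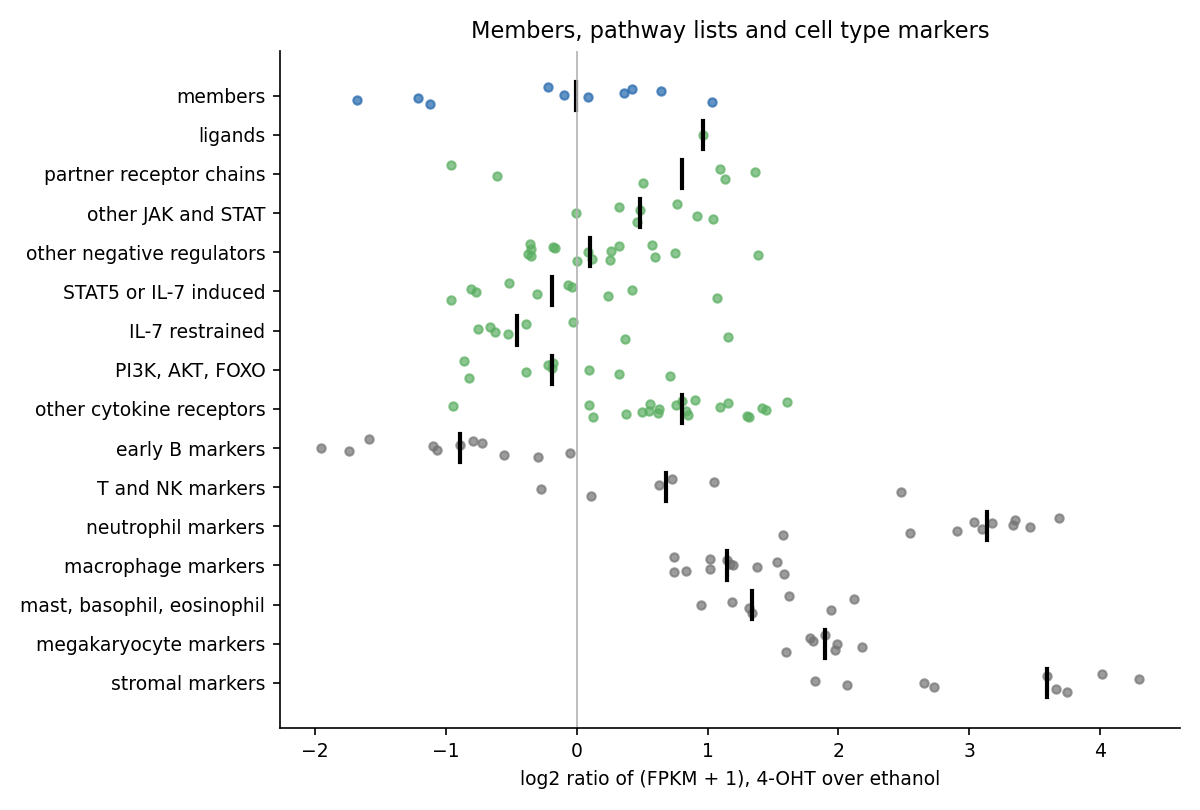
Log2 ratios (horizontal axis, 4-OHT over ethanol) of the compared genes, 1 point per gene, in the 10 genes described here (blue), the pathway lists (green) and the cell type marker lists (grey); black bars are list medians. The points of the 10 genes split into 3 at the left and the rest, early B markers lie left of 0 (median -0.89), and the neutrophil and stromal markers lie farthest right (medians 3.14 and 3.60).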

How the data were processed

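Messenger RNA of cultured bone marrow B cells was sequenced in 6 libraries, 3 per condition, as paired ends, per the labels' protocols. The FPKM values were made by the authors; the submitters' processing notes name CASAVA, TopHat2 2.0.9, Cufflinks 2.1.1 and mm9. How the 3 libraries were combined was not given in the sources used here. The authors' deposited log2 fold changes equal log2 of 4-OHT over ethanol within 0.01 in the 15756 rows above 0 in both conditions. Values of exactly 0 can be failed estimates (the translation factor gene Eef1a1 has 0 in both columns), so zeros are only reported as listed.

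From these values the ratio of (FPKM + 1) was computed for rows that averaged 1 FPKM or more and had both values above 0. With 1 value per gene and condition no test, SD or interval could be computed, and read depth is unknown. The members and lists were chosen with earlier results of these data known. The genes named in each pathway list were the 2 most abundant and those with the highest and lowest ratio, and in each marker list the 2 most abundant; 1 early B-cell marker is not reported here. Cd3d, Cd3e, Cd3g, Il7, Il6st and Lyz2 were chosen after their values were seen. Of 2 neutrophil and 1 macrophage marker names no row was matched. Table starts were raised by 1, since the lengths of 6341 of 18851 name-matched RefSeq genes fitted a start counted from 0 and 437 a start counted from 1. The software was matplotlib 3.10.9, pandas 2.3.3 and numpy 2.4.6 under Python 3.11.15, and the ratio and the motif search were tested on simulated data.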

Additional observations from a re-analysis of the deposited data

How the results depend on the processing

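Under 9 alternatives (pseudocounts of 0.1 and 0.5, median-of-ratios scaling, quantile normalization, the authors' deposited fold changes, no filter, a minimum mean of 5 FPKM and, chosen after the data were seen, a median ratio of compared genes set to 0 and no merged rows, which drops Jak3), the 10 genes kept their direction. No filter, the minimum of 5 FPKM and leaving out merged rows only select genes, so they could not alter a gene's own ratio. The authors' fold changes are the ratio of the same values without pseudocount. Socs1, Socs2 and Cish stayed at least 2-fold lower, with log2 ratios of -1.28 to -1.15, -1.74 to -1.61 and -1.29 to -1.06. Socs3 ran from 0.98, under median-of-ratios scaling and under 2-fold, to 1.13. The receptor and kinase median ran from 0.33 to 0.46 and the inhibitor median from -1.28 to -1.10. Over all genes, 1124 were higher by 2-fold or more, and 700 when a mean of 5 FPKM was required, where fewer genes were compared. In the other direction 280 were lower by 2-fold or more; a pseudocount of 0.1 gave 457, and the authors' deposited fold changes, without pseudocount, gave 482. The median ratio of all genes was -0.07, and 0 with no filter, which lets in rows listed at 0.

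No paired analysis was possible because each condition has a single pooled value per gene; leaving out each library was not run for the same reason. FPKM without counts gives no precision; low values such as those of Cish carry the least.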

Other observations

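Over the whole table, genes with and without the letters TTCNNNGAA near their start had the following values. The 649 compared genes with a match in a RefSeq window of GRCm38.p6 had a median log2 ratio of -0.09, with 10.9% at least 2-fold higher and 2.31% at least 2-fold lower in 4-OHT. The 7131 compared genes whose windows held no match had a median of -0.07, with 10.3% at least 2-fold higher and 2.61% at least 2-fold lower. Of genes with a window, the match was found for 3 of 9 of the set described here and 1 of 4 ligands (Il4). It was found for 1 of 7 genes that IL-7 restrains (Bcl6) and 2 of 9 in the PI3K branch (Akt2 and Mtor). Among the other cytokine receptors it was found for 4 of 19 (Csf2rb2, Prlr, Ifnar1 and Ifnar2). Over all genes with a window, 9.55% held a match. The match was found for 0 of 6 partner receptor chains, 0 of 6 other JAK and STAT genes and 0 of 10 other negative regulators with a window. It was also found for 0 of 8 STAT5 or IL-7 induced genes with a window. The set and each list hold few genes, so their counts, with or without matches, say little against that share.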
